A study of Drosophila melanogaster with 288 samples.

Results

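DNA replication genes code for the proteins that mark, license and fire replication origins, that supply nucleotides and copy the strands, and that repack the new DNA. Their mRNAs were followed here through the embryogenesis of Drosophila melanogaster. The group is a list of 32 genes named by their role, with no measured value in the rule itself: the 6 subunits of the MCM helicase, the 6 subunits of the origin recognition complex, 3 licensing genes, the GINS complex with Mcm10, the E2F transcription factors, ribonucleotide reductase, 4 genes of the replication fork, and the chromatin assembly factor with topoisomerase II. Of the 32, 30 were among the 17698 genes of the deposited table and 29 were tested. The samples were 288 single whole embryos of the W1118 strain, reared at room temperature and collected in 8 age windows, 2-3 h, 5-6 h, 8-9 h, 11-12 h, 14-15 h, 17-18 h, 20-21 h and 23-24 h after egg laying. The labels name no transgene, treatment or other strain, so that age is the only condition; W1118 flies carry a mutation of the eye colour gene white, shared by all samples. The study asked how gene expression and its variation between embryos of the same age change through development.

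Before an origin can fire, the origin recognition complex, Cdc6 and the Cdt1 homologue dup load the MCM helicase onto DNA, and geminin binds dup and blocks this step outside its proper time. Loaded helicase becomes active with the GINS complex, PCNA then clamps the polymerases to the template, and the E2F factors control transcription of many of these genes. In the fly, the first nuclear divisions run on maternal products without pauses, later divisions are fewer and patterned, most epidermal cells then stop dividing, and neuroblasts and some other tissues go on replicating.

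Expression was measured by BRB-seq, in which the mRNA of each embryo receives a barcode and reads come from the 3′ ends of transcripts. A level is a share of an embryo's reads, scaled to counts per 1e+06 counts (cpm). Since levels are shares of a whole embryo's reads, fewer replicating cells, less mRNA per cell and more of other mRNAs cannot be told apart. After quality control and removal of 97 samples in a separate cluster of the multidimensional scaling, 153 embryos were used: 11, 24, 27, 14, 21, 18, 24 and 14 from the youngest to the oldest window, with 377740 to 24787342 counts on protein-coding genes per embryo. They came from 4 libraries, named E1_1, E1_2, E2 and E3, and no embryo of 23-24 h was in E1_1 or E1_2. One embryo used at 20-21 h has a label of 17-18 h that differs from its title.

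Some embryos stood apart from their window. Each embryo's profile over genes outside the replication lists was set against the mean profile of every window, and 34 of the 153 embryos were nearer to another window than to their own: 5 at 2-3 h, 2 at 5-6 h, 2 at 8-9 h, 0 at 11-12 h, 6 at 14-15 h, 2 at 17-18 h, 10 at 20-21 h and 7 at 23-24 h. Most of them were nearest to a neighbouring window, but 4 embryos labelled 20-21 h and 2 labelled 23-24 h were nearest to 2-3 h. The summed level of 4 muscle genes (Mhc, Mlc2, up and Act57B) lay between 159 and 471 cpm in those 4 embryos and between 396 and 2175 cpm in those 2, against 15671 to 38519 cpm in the 14 embryos of 20-21 h nearest to their own window. At 2-3 h, by contrast, 1 embryo was nearest to 17-18 h and had 37622 cpm of the muscle genes, and 2 embryos of 5-6 h were nearest to 14-15 h, with 17348 to 20461 cpm. Results are therefore given for all 153 embryos and for the 119 own-window embryos, which numbered 6, 22, 25, 14, 15, 16, 14 and 7 from youngest to oldest. The 119 were chosen by how well they fitted their window, so they are not an independent sample. Such a choice can narrow the spread within windows and widen the gap between them. The p-values given for own-window embryos may therefore be too small.

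As a check of age in the whole series, the median sum of 4 neuroblast genes (dpn, wor, ase and mira) was 43.6 cpm at 2-3 h, 132 cpm at 5-6 h, 111 cpm at 8-9 h, 30.9 cpm at 11-12 h and between 4.26 and 6.88 cpm in the last 4 windows. The muscle sum had medians of 407 cpm at 2-3 h and 32579 cpm at 17-18 h. The neuronal sum (elav, nSyb, Syt1 and brp) had medians between 42.6 cpm at 5-6 h and 222 cpm at 14-15 h. The blastoderm genes (ftz, eve, kni and slam) summed to a median of 29.6 cpm at 2-3 h, 47.3 cpm at 8-9 h, where it was highest, and 4.34 cpm at 20-21 h. The maternal genes did not mark the youngest window: bcd, osk and nos had medians of at most 3.04 cpm in every window, and the sum with gcl was highest at 14-15 h, at 128 cpm.

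Of the 32 genes, Orc1 and RPA2 had no row under their current identifiers and were not analysed here. The gene lat, which codes for the third subunit of the origin recognition complex, was listed at 0 in all 153 embryos. Only if its reads could be counted does this allow at most 0.0027 cpm over the pooled 1110425231 counts. It lies on 2R from 13202728 to 13206547 and overlaps CG34315 on the same strand; whether that overlap bears on its count was not tested. The genes were spread over X and both large autosomes, with one close pair: RpA-70 (3R, 8262120 to 8264451, minus strand) and Mcm2 (3R, 8264970 to 8267924, plus strand) are separated by 518 bp. Coordinates are those of the BDGP6 assembly in Ensembl release 115. In 12 of the 29 tested genes another gene overlaps on the opposite strand (Mcm3, Mcm7, Orc2, Orc4, Orc5, Orc6, Cdc6, Psf3, Mcm10, E2f1, E2f2 and Dp), and since the strand setting of the counting is not given in the sources used here, their reads may include some of that neighbour.

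The summed median of replication mRNA was highest at 5-6 h, although none of the 29 genes was called between 5-6 h and 2-3 h in all 153 embryos, and it was lower in each later window up to 17-18 h. The 29 measured genes together had a median of 4385 cpm at 2-3 h (428 to 6303), 5542 cpm at 5-6 h (695 to 7423), 2610.1 cpm at 8-9 h (1065 to 6522) and 1259 cpm at 11-12 h (917 to 1769.9). In the older windows the medians were 581 cpm at 14-15 h (232 to 1117), 432 cpm at 17-18 h (221 to 682), 547 cpm at 20-21 h (167 to 4815) and 534 cpm at 23-24 h (428 to 4618). The median thus stayed near its low point after 17-18 h while the highest embryos of 20-21 h and 23-24 h reached the levels of 2-3 h. Those were the embryos named above: the 4 embryos of 20-21 h nearest to 2-3 h had 2975 to 4815 cpm and the 2 of 23-24 h had 3333 to 4618 cpm. Among own-window embryos the range was 278 to 1622 cpm at 20-21 h and 428 to 964 cpm at 23-24 h, below all 22 own-window embryos of 5-6 h, which had 3051 cpm or more. In the heat map of medians, 19 of the 29 genes peaked at 5-6 h. The exceptions were Cdc6, Sld5, Mcm10, PCNA, Caf1-105 and Top2, with the highest median at 2-3 h, and Mcm3, E2f1, Dp and Caf1-180, with the highest at 8-9 h. The ratio of the highest to the lowest median ran between 4.22 for Psf3 and 63.0 for Fen1, the nuclease that removes the flaps of Okazaki fragments.

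**Figure D1:**
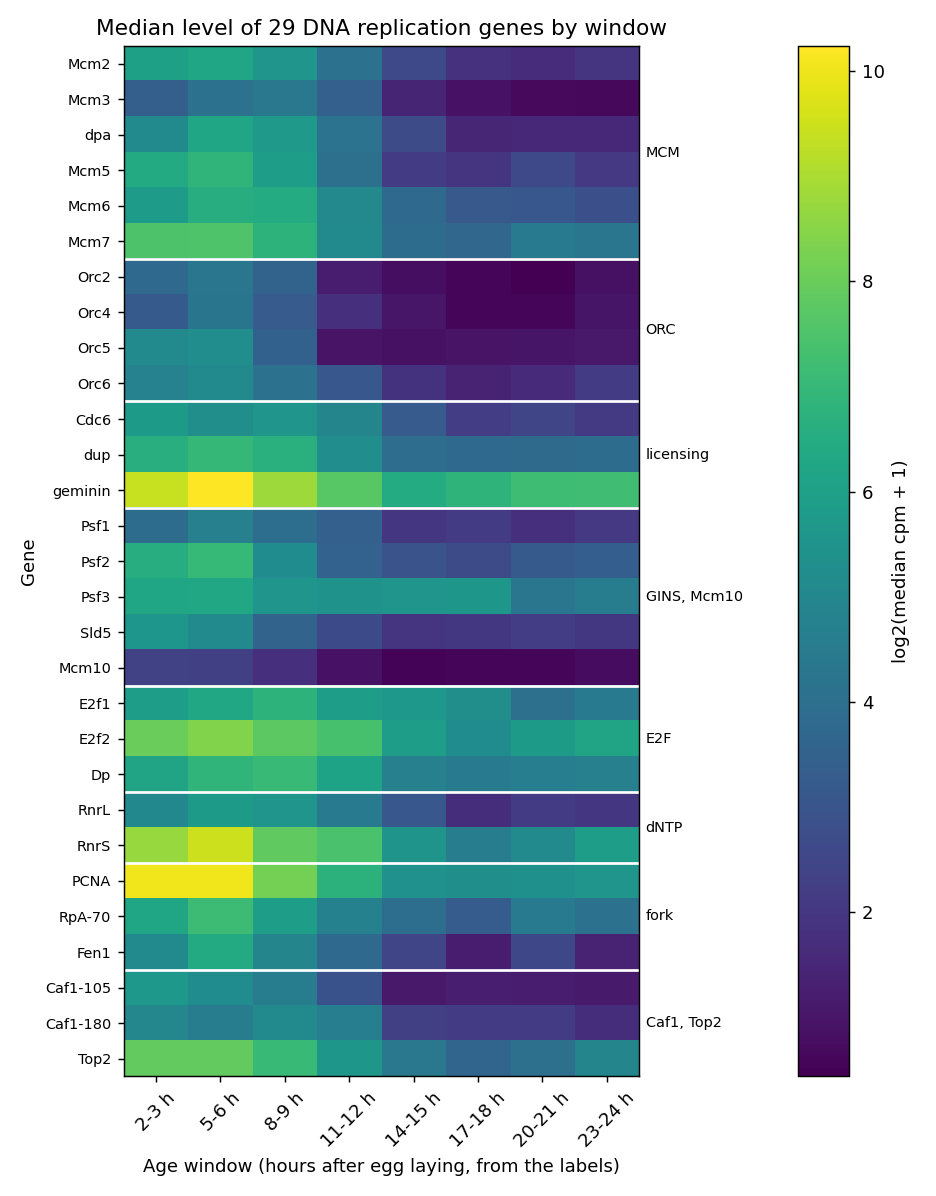
Median level of each of the 29 measured genes (rows, grouped by role, with white lines between roles) in each age window (columns), as log2 of the median cpm plus 1 over all 153 embryos; brighter cells are higher. Most rows are brightest at 5-6 h and darken up to 17-18 h, while Psf3 has the smallest ratio of highest to lowest median cpm, 4.22.

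The MCM genes code for the ring-shaped helicase that unwinds DNA at the fork. All 6 of those measured fell between 8-9 h and 11-12 h. The median of Mcm7 was 179 cpm at 2-3 h (4.92 to 296) and 185 cpm at 5-6 h (18.9 to 309). The median of Mcm7 was then 108 cpm at 8-9 h (29.7 to 417) and 34.4 cpm at 11-12 h (8.37 to 58.7). Later it was 14.1 cpm at 14-15 h (7.33 to 28.97), 11.8 cpm at 17-18 h (1.34 to 22.4), 21.3 cpm at 20-21 h (5.08 to 195) and 18.5 cpm at 23-24 h (7.28 to 93.1). The ranges of 8-9 h and 11-12 h overlapped, and those of 5-6 h and 17-18 h overlapped only through low embryos of 5-6 h. Mcm7 was lower at 11-12 h than at 8-9 h (log2 fold change -2.38, SE 0.41, adjusted p = 1.44e-06 in edgeR's quasi-likelihood test), and in own-window embryos it was also lower at 14-15 h than at 11-12 h (log2 fold change -0.82, SE 0.22, adjusted p = 0.00163). Mcm6 had medians of 55.9 cpm at 2-3 h (3.80 to 180.1) and 91.9 cpm at 5-6 h (20.6 to 167). The median of Mcm6 was then 86.6 cpm at 8-9 h (32.4 to 226) and 31.9 cpm at 11-12 h (6.91 to 60.1). Its later medians were 12.8 cpm at 14-15 h (1.54 to 46.4), 8.10 cpm at 17-18 h (1.34 to 28.4), 7.69 cpm at 20-21 h (1.37 to 101) and 6.09 cpm at 23-24 h (1.27 to 76.6). Mcm6 did not pass the test at 8-9 h against 5-6 h in all 153 embryos (log2 fold change -0.46, SE 0.34, adjusted p = 0.286), and it was lower at 11-12 h than at 8-9 h (log2 fold change -1.75, SE 0.42, adjusted p = 6.83e-04). Among the other MCM genes, Mcm2 had 2.53 cpm at 17-18 h and 73.3 cpm at 5-6 h. Mcm5 had 2.89 cpm at 17-18 h and 115 cpm at 5-6 h, and dpa, the fly Mcm4, had 1.84 and 74.9 cpm in the same order. Mcm3 alone among them had its highest median at 8-9 h, at 19.3 cpm, with 16.5 cpm at 5-6 h, and its step between those windows was not called (log2 fold change -0.01, SE 0.40, adjusted p = 0.987).

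The origin recognition complex binds origins and recruits the helicase. Its 4 measured subunits were all lower at 8-9 h than at 5-6 h. Of the 6 MCM genes, 1 was called in that step in all 153 embryos and 5 in own-window embryos, and the difference between the complexes was not tested. Orc5 had medians of 32.9 cpm at 2-3 h (2.46 to 49.0) and 36.4 cpm at 5-6 h (0.220 to 79.9). The median of Orc5 was then 10.3 cpm at 8-9 h (0 to 29.1) and 0.931 cpm at 11-12 h (0 to 9.09). At the older ages it had 0.865 cpm at 14-15 h (0.218 to 9.45), 0.943 cpm at 17-18 h (0 to 13.96), 0.976 cpm at 20-21 h (0 to 98.1) and 1.16 cpm at 23-24 h (0 to 209.6). Between 8-9 h and 11-12 h it went below 1 cpm in the median embryo and stayed there up to 20-21 h, except in a few embryos. Orc5 fell by 1.59 on the log2 scale at 8-9 h against 5-6 h (SE 0.58, adjusted p = 0.0230, edgeR) and by 2.69 at 11-12 h against 8-9 h (SE 0.75, adjusted p = 0.00401, edgeR). Orc6, the smallest subunit, had 26.6 cpm at 2-3 h (2.91 to 86.6) and 34.2 cpm at 5-6 h (1.98 to 74.8). The median of Orc6 was then 16.03 cpm at 8-9 h (0 to 64.6) and 7.65 cpm at 11-12 h (0 to 19.8). Its medians were then 2.70 cpm at 14-15 h (0 to 23.1), 1.70 cpm at 17-18 h (0 to 4.82), 2.10 cpm at 20-21 h (0 to 74.5) and 3.47 cpm at 23-24 h (0 to 139). Orc6 had counts of 0 in single embryos of every window from 8-9 h on. Comparing 23-24 h with 2-3 h, neither Orc5 (log2 fold change -1.03, SE 0.83, adjusted p = 0.295) nor Orc6 (log2 fold change -1.04, SE 0.67, adjusted p = 0.179) was called in all 153 embryos, where single embryos of 23-24 h reached 209.6 cpm of Orc5 and 139 cpm of Orc6. In own-window embryos both were lower, with a log2 fold change of -3.88 for Orc5 (adjusted p = 1.12e-04, edgeR) and -2.47 for Orc6 (adjusted p = 0.00265, edgeR). Orc2 and Orc4 had medians under 1 cpm from 17-18 h on; their highest medians were 18.6 and 18.2 cpm, both at 5-6 h.

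Licensing depends on Cdc6 and dup, and geminin holds dup back. The median of geminin was 676 cpm at 2-3 h (74.1 to 1178) and 1208 cpm at 5-6 h (186 to 2041). The median of geminin was then 447 cpm at 8-9 h (142 to 2165) and 206 cpm at 11-12 h (104 to 640.02). It was 86.6 cpm at 14-15 h (35.9 to 236), 113 cpm at 17-18 h (37.4 to 172), 147 cpm at 20-21 h (54.0 to 549) and 151 cpm at 23-24 h (84.2 to 1009). The inhibitor therefore moved in the same direction as the factor it binds in each step that was called for both. Geminin fell in each of 3 steps between 5-6 h and 14-15 h, by 1.48, 1.46 and 0.76 on the log2 scale (adjusted p = 6.60e-07, 7.88e-05 and 0.0366, edgeR). For dup, medians were 95.1 cpm at 2-3 h (31.8 to 269) and 125 cpm at 5-6 h (15.4 to 254). The median of dup was then 99.5 cpm at 8-9 h (36.6 to 185) and 37.3 cpm at 11-12 h (3.79 to 115). At the older ages they were 14.2 cpm at 14-15 h (3.86 to 44.0), 12.7 cpm at 17-18 h (2.68 to 28.9), 13.1 cpm at 20-21 h (2.21 to 602) and 14.1 cpm at 23-24 h (0.910 to 169). The dup gene did not pass the test between 5-6 h and 8-9 h in all 153 embryos (log2 fold change -0.73, SE 0.40, adjusted p = 0.136), but did in own-window embryos (log2 fold change -1.24, SE 0.23, adjusted p = 2.77e-06), and it was lower in both of the next steps. Its highest value, 602 cpm, was in an embryo of 20-21 h, above every embryo of 2-3 h and 5-6 h. Cdc6 had its highest median at 2-3 h, 54.0 cpm, and was lower at 14-15 h than at 11-12 h (log2 fold change -1.40, SE 0.41, adjusted p = 0.00465).

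The GINS complex joins the helicase when an origin fires, and Mcm10 acts at the same step. All 5 of these genes were lower at 8-9 h than at 5-6 h. Psf2 had medians of 92.1 cpm at 2-3 h (3.58 to 153) and 128 cpm at 5-6 h (12.7 to 295). The median of Psf2 was then 36.1 cpm at 8-9 h (0.978 to 66.2) and 10.5 cpm at 11-12 h (3.19 to 25.4). Then it had 6.73 cpm at 14-15 h (1.10 to 32.5), 5.64 cpm at 17-18 h (0.975 to 12.9), 8.29 cpm at 20-21 h (0 to 66.7) and 9.28 cpm at 23-24 h (0 to 95.2). Its fall at 8-9 h against 5-6 h was the largest of the 29 genes (log2 fold change -2.30, SE 0.38, adjusted p = 4.94e-07). Psf3 behaved differently after that step, with medians of 72.9 cpm at 2-3 h (27.02 to 132) and 77.9 cpm at 5-6 h (18.9 to 164). The median of Psf3 was then 45.3 cpm at 8-9 h (10.5 to 91.7) and 41.8 cpm at 11-12 h (0.880 to 69.5). Its later medians were 45.5 cpm at 14-15 h (17.4 to 76.6), 47.9 cpm at 17-18 h (8.05 to 90.3), 18.5 cpm at 20-21 h (0 to 94.5) and 23.3 cpm at 23-24 h (0.991 to 76.0). From 8-9 h to 17-18 h the median of Psf3 stayed between 41.8 and 47.9 cpm, and none of the 3 steps in that span was called. At 20-21 h Psf3 was lower than at 17-18 h (log2 fold change -0.77, SE 0.28, adjusted p = 0.0380), also in own-window embryos (log2 fold change -0.74, SE 0.28, adjusted p = 0.0441), the direction opposite to that of most of the other genes. Psf3 and E2f1 were the 2 genes called lower in that step, and their calls depend on the setting. With thinned counts 1 of the 29 was called lower, against 5.99% of all genes. Without the 6 late embryos nearest to 2-3 h it was also 1, against 5.09%. In library E2 alone it was 0, against 1.68%. Psf3 overlaps CG17841 on the other strand, and the part of that gene in its counts was not tested. Its partners Psf1 and Sld5 had 3.39 and 3.05 cpm in the median embryo of 17-18 h, after highest medians of 24.9 cpm at 5-6 h and 46.9 cpm at 2-3 h. Mcm10 had low counts throughout, with a highest median of 4.07 cpm at 2-3 h.

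The E2F factors act upstream of many replication genes: E2f1 activates, E2f2 represses. Dp is the partner that either needs to bind DNA. E2f2 and Dp fell in at least 1 step each up to 14-15 h. E2f2 had medians of 255 cpm at 2-3 h (79.2 to 444) and 333 cpm at 5-6 h (104 to 597). The median of E2f2 was then 220.1 cpm at 8-9 h (23.8 to 464) and 165 cpm at 11-12 h (81.6 to 292). It had 58.6 cpm at 14-15 h (18.2 to 132), 35.9 cpm at 17-18 h (6.71 to 88.5), 54.4 cpm at 20-21 h (2.54 to 196) and 70.9 cpm at 23-24 h (16.4 to 151) later. The step of E2f2 between 8-9 h and 11-12 h was not called in all 153 embryos, and its fall at 14-15 h against 11-12 h was called (log2 fold change -1.06, SE 0.28, adjusted p = 0.00155). Dp had 71.2 cpm at 2-3 h (4.03 to 229) and 114 cpm at 5-6 h (22.8 to 345). The median of Dp was then 135 cpm at 8-9 h (50.4 to 248) and 69.4 cpm at 11-12 h (14.5 to 106). At the older ages Dp had 25.3 cpm at 14-15 h (2.19 to 72.9), 20.6 cpm at 17-18 h (7.49 to 72.7), 23.98 cpm at 20-21 h (0 to 112) and 25.2 cpm at 23-24 h (1.27 to 126). Dp was highest in the median at 8-9 h and was lower at 11-12 h than at 8-9 h (log2 fold change -1.25, SE 0.33, adjusted p = 0.00237). E2f1 had medians of 57.8 cpm at 2-3 h (18.02 to 117) and 76.3 cpm at 5-6 h (17.6 to 236). The median of E2f1 was then 108 cpm at 8-9 h (11.1 to 226) and 59.4 cpm at 11-12 h (26.4 to 149). Its medians were 50.3 cpm at 14-15 h (6.75 to 109.8), 38.4 cpm at 17-18 h (12.7 to 78.9), 15.5 cpm at 20-21 h (0 to 106) and 21.3 cpm at 23-24 h (1.56 to 79.1) afterwards. No step of E2f1 before 20-21 h was called in all 153 embryos; in own-window embryos it was lower at 11-12 h than at 8-9 h (log2 fold change -0.91, SE 0.29, adjusted p = 0.00768). At 20-21 h E2f1 was lower than at 17-18 h (log2 fold change -0.94, SE 0.30, adjusted p = 0.0144), and in own-window embryos the difference was -1.23 (SE 0.32, adjusted p = 0.00186, edgeR). In library E2 alone 0 of the 29 genes were called lower in that step, against 1.68% of all genes. E2f1 shares its span with 5 other annotated genes, 2 on its own strand, so its counts may be affected by them, which was not tested.

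RnrL and RnrS code for the large and small subunits of ribonucleotide reductase, which makes the DNA precursors. RnrS had medians of 423 cpm at 2-3 h (25.3 to 1077) and 721 cpm at 5-6 h (33.2 to 1776). The median of RnrS was then 229 cpm at 8-9 h (26.9 to 1732) and 169.5 cpm at 11-12 h (61.8 to 425). At older ages it had 45.1 cpm at 14-15 h (4.61 to 297), 23.1 cpm at 17-18 h (3.39 to 60.9), 34.2 cpm at 20-21 h (7.50 to 651) and 59.0 cpm at 23-24 h (6.37 to 817). The small subunit was the only one of the 29 genes called between 14-15 h and 17-18 h in all 153 embryos, where it was lower (log2 fold change -1.28, SE 0.41, adjusted p = 0.0492). As 3.00% of all genes were called lower in that step, 1 of 29 is near the background. The call was lost with DESeq2 size factors, limma, no filter on low counts, no library term, thinned counts, the separate cluster included, library E2 or E3 alone and without the embryo whose age labels disagree, and was kept by DESeq2's Wald test, without the 6 late embryos nearest to 2-3 h and in own-window embryos, though not in those of library E2 alone. RnrL had 31.2 cpm at 2-3 h (1.79 to 131) and 53.4 cpm at 5-6 h (6.38 to 102). The median of RnrL was then 45.9 cpm at 8-9 h (5.29 to 129) and 20.8 cpm at 11-12 h (0.761 to 56.3). It then had 7.52 cpm at 14-15 h (0 to 28.1), 2.29 cpm at 17-18 h (0 to 28.8), 3.44 cpm at 20-21 h (0 to 66.4) and 2.95 cpm at 23-24 h (0 to 280.2). One embryo of 23-24 h had 280.2 cpm of RnrL while no embryo of the windows up to 17-18 h had more than 131 cpm, and RnrL was not called between 23-24 h and 2-3 h in all 153 embryos (log2 fold change -0.66, SE 0.72, adjusted p = 0.448). In own-window embryos, where the highest of 23-24 h had 7.21 cpm, it was lower (log2 fold change -3.25, SE 0.77, adjusted p = 1.45e-04).

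At the fork, PCNA is the sliding clamp, RpA-70 the large subunit of the single-strand binding protein and Fen1 the flap nuclease. PCNA had medians of 1047 cpm at 2-3 h (40.1 to 1449) and 1041 cpm at 5-6 h (69.9 to 1449). The median of PCNA was then 292 cpm at 8-9 h (69.8 to 492) and 106 cpm at 11-12 h (50.3 to 275). Its later medians were 40.8 cpm at 14-15 h (15.4 to 145), 38.8 cpm at 17-18 h (14.8 to 59.3), 40.3 cpm at 20-21 h (14.3 to 2319.6) and 45.4 cpm at 23-24 h (25.02 to 1303). All embryos of 17-18 h lay below all of 5-6 h, while single embryos of 2-3 h were as low as those of 17-18 h and single embryos of 20-21 h and 23-24 h as high as those of 5-6 h. Among the own-window embryos the highest at 17-18 h had 59.3 cpm, against a lowest of 446 cpm at 5-6 h. PCNA fell by 1.88 on the log2 scale at 8-9 h against 5-6 h (SE 0.43, adjusted p = 1.76e-04, edgeR) and by 1.77 at 11-12 h against 8-9 h (SE 0.53, adjusted p = 0.00693, edgeR). At 20-21 h its fitted level was far above that of 17-18 h (log2 fold change 3.25, SE 0.53, adjusted p = 1.35e-06) although the medians were 40.3 cpm at 20-21 h and 38.8 cpm at 17-18 h. The 4 embryos of 20-21 h nearest to 2-3 h had 1036 to 2319.6 cpm of PCNA. In own-window embryos the log2 fold change was 1.31 (SE 0.31, adjusted p = 6.14e-04, edgeR), with a highest embryo of 434 cpm. In own-window embryos of library E2 alone it was -0.0240 and not called.

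RpA-70 had medians of 72.2 cpm at 2-3 h (2.24 to 312) and 140.3 cpm at 5-6 h (6.76 to 329). The median of RpA-70 was then 58.8 cpm at 8-9 h (5.63 to 155) and 25.5 cpm at 11-12 h (13.6 to 80.5). Later it had 14.6 cpm at 14-15 h (0.730 to 64.8), 8.74 cpm at 17-18 h (0 to 13.8), 21.1 cpm at 20-21 h (1.03 to 209) and 15.9 cpm at 23-24 h (2.55 to 267). It was 1 of 2 genes, with Fen1, that were higher at 5-6 h than at 2-3 h in own-window embryos, by a log2 fold change of 1.46 (adjusted p = 0.0276, edgeR) and 1.51 for Fen1 (adjusted p = 0.0421, edgeR). As 6.89% of all genes were called higher in that comparison, 2 of 29 is near the background, and in all 153 embryos neither step was called. Fen1 was also the only gene called lower at 23-24 h than at 20-21 h (log2 fold change -1.75, SE 0.52, adjusted p = 0.0416), with medians of 1.68 cpm at 23-24 h and 4.99 cpm at 20-21 h. Of all genes, 1.69% were called lower in that step. The call was lost with limma, with thinned counts, in library E2 or E3 alone, without the embryo whose age labels disagree and without the 6 late embryos nearest to 2-3 h.

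Caf1-180 and Caf1-105 are subunits of the chromatin assembly factor, which puts histones on new DNA, and Top2 is the topoisomerase that untangles sister strands. Top2 had medians of 236 cpm at 2-3 h (13.9 to 368) and 233 cpm at 5-6 h (13.3 to 413). The median of Top2 was then 130.3 cpm at 8-9 h (28.6 to 464) and 47.9 cpm at 11-12 h (6.85 to 87.5). Afterwards it had 19.7 cpm at 14-15 h (4.24 to 78.6), 11.4 cpm at 17-18 h (2.68 to 21.7), 15.8 cpm at 20-21 h (3.24 to 479) and 28.9 cpm at 23-24 h (1.27 to 206). In own-window embryos the highest Top2 value at 17-18 h, 21.7 cpm, lay below the lowest at 5-6 h, 110.2 cpm. Caf1-180 had 30.5 cpm at 2-3 h (12.1 to 195) and 22.4 cpm at 5-6 h (0 to 87.8). The median of Caf1-180 was then 33.03 cpm at 8-9 h (0 to 114) and 23.5 cpm at 11-12 h (1.76 to 37.6). It had 3.94 cpm at 14-15 h (0.365 to 90.2), 3.47 cpm at 17-18 h (0.475 to 22.1), 3.54 cpm at 20-21 h (0 to 128) and 2.29 cpm at 23-24 h (0 to 98.1) in the older windows. None of its 7 steps except the one at 20-21 h was called in all 153 embryos. Both were lower at 23-24 h than at 2-3 h, Top2 by 2.38 on the log2 scale (SE 0.59, adjusted p = 3.54e-04, edgeR) and Caf1-180 by 2.03 (SE 0.75, adjusted p = 0.0172, edgeR). Caf1-105 had its highest median, 49.7 cpm, at 2-3 h and 1.18 cpm at 14-15 h.

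**Figure D2:**
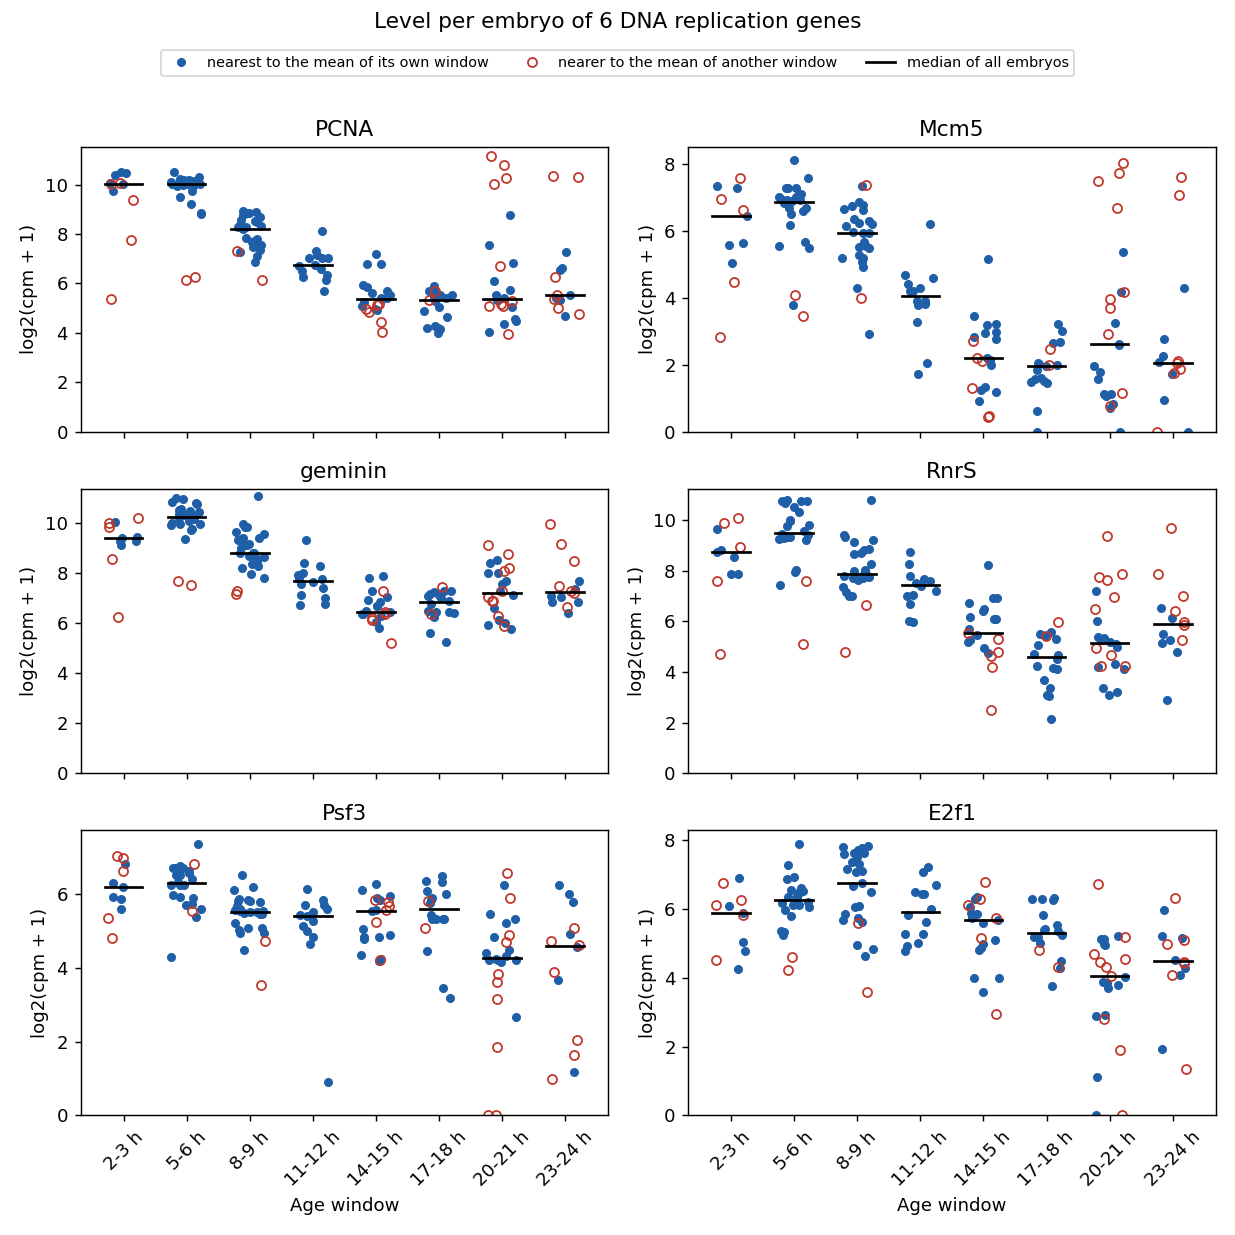
Level of PCNA, Mcm5, geminin, RnrS, Psf3 and E2f1 in each of the 153 embryos, as log2 of cpm plus 1, by age window. Filled points are embryos nearest to the mean of their own window, open red points are embryos nearer to another, and bars are medians; the 4 open PCNA points at the top of 20-21 h have 1036 to 2319.6 cpm, and the Psf3 medians lie between 41.8 and 47.9 cpm from 8-9 h to 17-18 h.

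Over the whole course, all 29 genes differed between windows in edgeR's quasi-likelihood test of any difference, as did 89.7% of the 9606 genes tested, so that the test separates the group little from other genes. The steps between neighbouring windows say more. A gene was called at a Benjamini-Hochberg adjusted p under 0.05 over all 9606 genes, separately for higher and lower, and the share of all genes called is given beside each count. Embryos were single animals, and each p-value sets a difference between windows against the variation between embryos, with library as covariate. Cage and egg collection were not in the model, so embryos that shared them were treated as independent.

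At 5-6 h against 2-3 h, 0 of the 29 genes were called in either direction in all 153 embryos, with 0 at an unadjusted p under 0.05, against 1.56% of all genes called higher and 6.50% called lower. DESeq2's Wald test also called 0, against 3.36% of all genes higher and 7.96% lower. In limma on voom values 2 were higher and 0 lower, against 4.60% and 4.67% of all genes. In own-window embryos 2 genes were higher and 0 lower, against 6.89% and 10.6% of all genes. The median log2 fold change of the 29 was -0.04 in all 153 embryos and 0.04 in the own-window embryos, against -0.13 and 0.02 over all genes.

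The first fall came at 8-9 h. Against 5-6 h, 17 of the 29 genes were lower and 0 higher, while 24.0% of all genes were lower and 13.9% higher. The genes called were those of the origin recognition complex (4 of 4), GINS and Mcm10 (5 of 5) and the fork (3 of 3), with Mcm7, geminin, E2f2, RnrS and Caf1-105. In own-window embryos 24 were lower and 0 higher, against 26.9% and 18.9% of all genes, and the genes not called were Mcm3, Cdc6, E2f1, Dp and Caf1-180. The median log2 fold change of the 29 was -0.91 in all 153 embryos and -1.45 in own-window embryos, against -0.21 and -0.18 over all genes.

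A further fall followed at 11-12 h. Against 8-9 h, 18 of the 29 were lower and 0 higher, and 8.52% of all genes were lower and 15.9% higher, so here the group moved against the larger share of genes. The calls included all 6 MCM genes, Orc2, Orc4, Orc5, dup, geminin, Psf2, Dp, RnrS, PCNA, RpA-70, Fen1 and Top2. Own-window embryos gave 24 lower and 0 higher, against 15.5% and 19.1% of all genes. The median log2 fold change was -1.38 in all 153 embryos and -1.32 in own-window embryos, against -0.02 and -0.09 over all genes, and all 29 estimates were negative in either set.

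At 14-15 h against 11-12 h, 10 of the 29 were lower (Mcm3, dpa, Cdc6, dup, geminin, Psf1, E2f2, Dp, Fen1 and Caf1-105) and 0 higher, with 10.9% of all genes lower and 21.7% higher. All 3 licensing genes and 0 of the 4 origin recognition genes were among them. Own-window embryos gave 16 lower and 0 higher, against 14.6% and 17.5%. Without the 6 late embryos nearest to 2-3 h, 17 were lower, against 16.9% of all genes. Over the 29 genes the median log2 fold change was -0.86 and in own-window embryos -0.86, against 0.00 and -0.11 over all genes.

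Between 14-15 h and 17-18 h, 1 gene, RnrS, was called lower at 17-18 h and 0 higher in all 153 embryos (0 lower without the embryo whose age labels disagree), against 3.00% and 1.79% of all genes. In own-window embryos, which leave out 6 embryos of 14-15 h nearest to 17-18 h, 11 were lower (Mcm2, Mcm6, Orc4, Orc6, E2f2, RnrL, RnrS, PCNA, RpA-70, Fen1 and Top2) and 0 higher, against 15.9% and 11.4%. In those sets the median log2 fold change was -0.55 and -0.77, against -0.15 and -0.27 over all genes.

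At 20-21 h against 17-18 h the direction turned, and this step depends on few embryos. In all 153 embryos 23 of the 29 were higher and 2 lower (Psf3 and E2f1), while 15.3% of all genes were higher and 6.19% lower, and the median log2 fold change was 2.04, against 0.21 over all genes. In own-window embryos 12 were higher (Mcm5, Mcm7, dup, geminin, Psf2, Sld5, RnrL, RnrS, PCNA, RpA-70, Fen1 and Top2) and 2 lower, against 14.8% and 10% of all genes, with a median of 0.91, against 0.16 over all genes. When only the 4 embryos of 20-21 h and the 2 of 23-24 h nearest to 2-3 h were left out, a comparison chosen after the values were seen, 8 were higher and 1 lower, against 8.91% and 5.09% of all genes, and the median was 0.61. In all 153 embryos limma on voom values called 5 higher, against 9.08% of all genes, and in own-window embryos of library E2 edgeR called 0 higher, against 1.83%, with 0 at an unadjusted p under 0.05. The medians over embryos moved far less than the fitted means: for the 29 genes together they were 547 cpm at 20-21 h and 432 cpm at 17-18 h in all 153 embryos, and 449 and 432 cpm in own-window embryos.

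The last step changed little. At 23-24 h against 20-21 h, Fen1 was lower and 0 genes were higher in all 153 embryos (0 lower without the embryo whose age labels disagree, and 0 without the 6 late embryos nearest to 2-3 h), and likewise 1 lower, Fen1 again, and 0 higher in own-window embryos, against 1.69% lower and 1.31% higher of all genes in all 153 embryos and 5.88% and 7.88% in own-window embryos. The median log2 fold change of the 29 was -0.38 in all 153 embryos and -0.51 in own-window embryos, against -0.09 and 0.04 over all genes. Across the whole span, 25 of the 29 were lower at 23-24 h than at 2-3 h and 0 higher, against 27.6% and 26.3% of all genes; the 4 not called were Orc5, Orc6, RnrL and RpA-70. In own-window embryos all 29 were lower, against 32.1% of all genes lower and 32.8% higher. The median log2 fold change over this span was -2.38 in all 153 embryos and -4.13 in own-window embryos, with -0.08 and -0.07 over all genes.

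**Figure D3:**
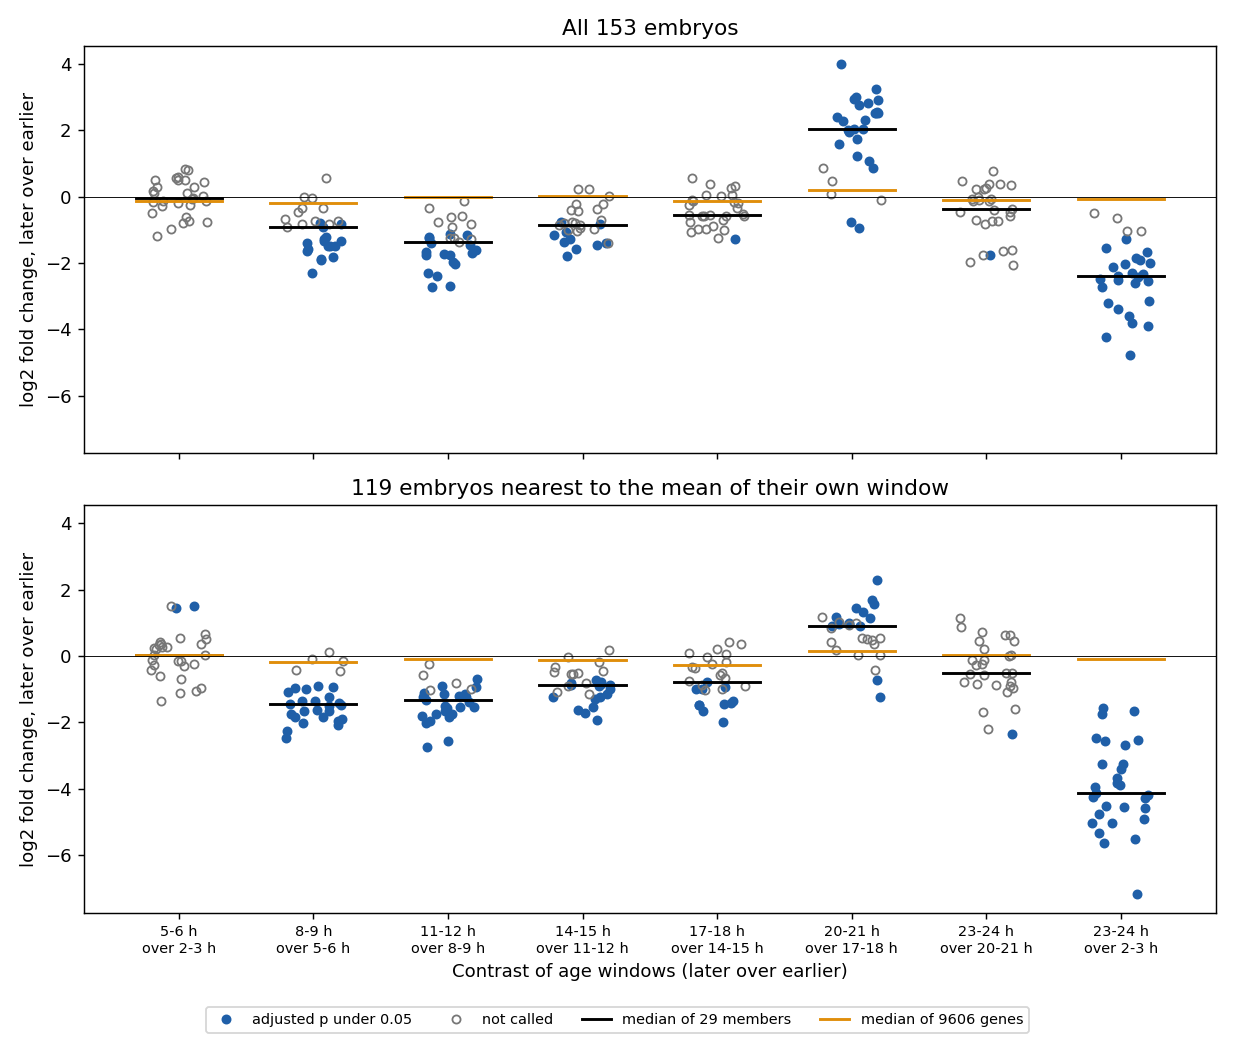
Log2 fold change (vertical axis, later over earlier window) of each of the 29 genes in each contrast, in all 153 embryos (top) and in the 119 embryos nearest to their own window (bottom). Filled points were called at an adjusted p under 0.05, black bars are medians of the 29 and orange bars medians of all 9606 genes; the median of the 29 at 20-21 h over 17-18 h is 2.04 in the top panel and 0.91 in the bottom one.

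In libraries E2 and E3 alone the median changes of the 29 genes at 8-9 h and at 11-12 h, each against the window before, were also negative, and with all embryos of either library none of the 29 was called in them. The summed level of the 29 genes had medians of 5504, 3506 and 402 cpm at 5-6 h, 8-9 h and 17-18 h in library E1_1, and of 3926, 2147 and 351 cpm in E1_2. In E2 they were 6120.2, 3012 and 481 cpm, and in E3 5145, 2029.9 and 221 cpm, the last from a single embryo. At 8-9 h against 5-6 h the median log2 fold change was -0.78 in E2 alone and -1.48 in E3 alone, with 0 genes called in either by edgeR and 3 and 7 lower at an unadjusted p under 0.05. At 11-12 h against 8-9 h it was -1.51 in E2 and -0.96 in E3, again with 0 called, and 9 and 3 lower at an unadjusted p under 0.05. Of all genes, 4.53% and 0.239% were called lower in these 2 steps in E2 alone, and 0.239% and 0% in E3 alone. With so few genes called, the 0 of 29 in E3, and in E2 at 11-12 h, says little about the group. In own-window embryos of E2, 11 and 15 genes were lower in the same 2 steps, against 6.61% and 3.57% of all genes. At 20-21 h against 17-18 h, 12 genes were higher in E2 alone, against 4.06% of all genes, and 0 in own-window embryos of E2, against 1.83%. In these own-window embryos 0 were higher at an unadjusted p under 0.05 and the median log2 fold change was 0.31. In E3 that step rests on 1 embryo of 17-18 h.

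Variation between embryos of the same window was described by the adjusted SD. It is the SD of a gene between those embryos over the SD expected from its mean level over all windows. Log2 levels under 0, or with a count of 0, were set to 0, so genes near 0 in a window have little room to vary. Orc4 at 17-18 h, for example, had a median of 0.525 cpm and an adjusted SD of 0.0388. The median adjusted SD over the 29 genes was 1.02 at 2-3 h, 0.826 at 5-6 h, 0.650 at 8-9 h, 0.603 at 11-12 h, 0.636 at 14-15 h, 0.503 at 17-18 h, 1.18 at 20-21 h and 1.05 at 23-24 h. Over all 9606 genes it was 0.738 at 2-3 h, 0.602 at 5-6 h, 0.571 at 8-9 h, 0.592 at 11-12 h, 0.707 at 14-15 h, 0.648 at 17-18 h, 0.965 at 20-21 h and 0.935 at 23-24 h. Above the median gene were 23 of the 29 at 2-3 h, 26 of the 29 at 5-6 h, 22 of the 29 at 8-9 h, 15 of the 29 at 11-12 h, 11 of the 29 at 14-15 h, 4 of the 29 at 17-18 h, 25 of the 29 at 20-21 h and 18 of the 29 at 23-24 h, a description without a test. In own-window embryos the medians of the 29 were 0.520 at 2-3 h, 0.444 at 5-6 h, 0.661 at 8-9 h, 0.634 at 11-12 h, 0.735 at 14-15 h, 0.549 at 17-18 h, 0.833 at 20-21 h and 0.663 at 23-24 h, against 0.429, 0.511, 0.546, 0.613, 0.701, 0.669, 0.760 and 0.839 over all genes in the same order. The counts above the median gene, in the same order of windows, were then 18, 10, 23, 16, 16, 7, 18 and 7 of 29, so that the order of the medians turned at 5-6 h, 14-15 h and 23-24 h. With counts of all 153 embryos thinned to equal depth they were 18, 16, 16, 15, 10, 9, 21 and 18 of 29, and with the median absolute deviation in place of the SD they were 19, 13, 22, 17, 10, 3, 18 and 11 of 29. The count of 8-9 h was 22 or 23 in these sets other than the thinned one. At 17-18 h the median of the 29 was 0.699 in the thinned counts, against 0.749 over all genes. How far low levels set the spread there was not tested. PCNA had the highest adjusted SD of the 29 at 20-21 h, 1.81, and at 23-24 h, 1.66.

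**Figure D4:**
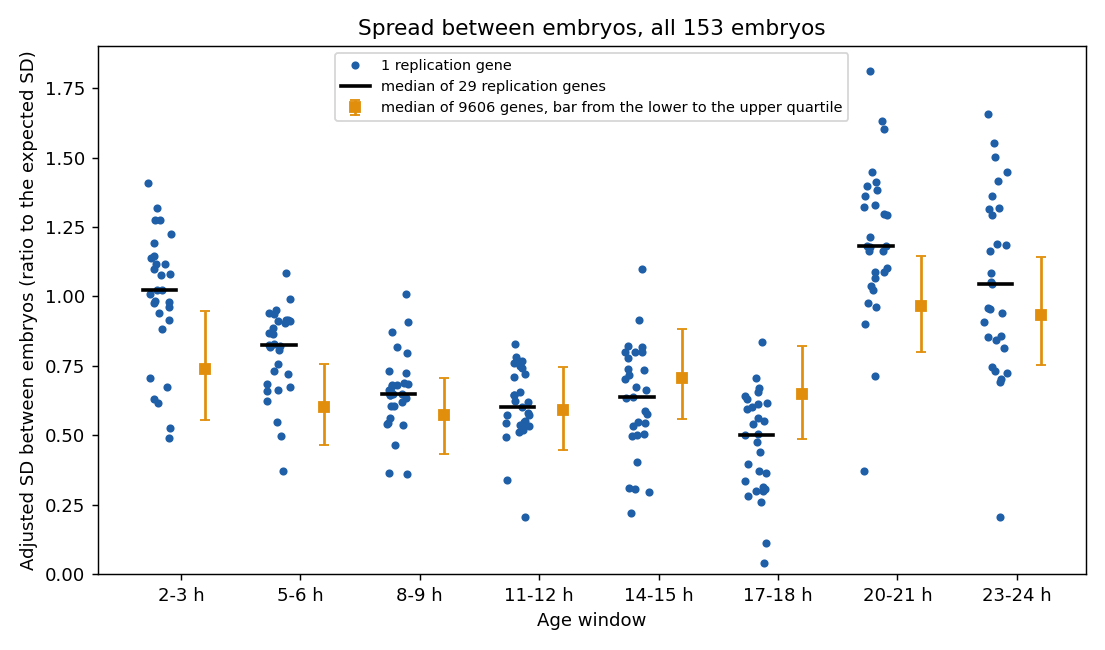
Adjusted SD between embryos (ratio to the expected SD) in each age window for each of the 29 genes (blue points, black bar at their median) and for all 9606 genes (orange square at the median, bar between the quartiles), in all 153 embryos. The median of the 29 is 1.02 at 2-3 h, 0.503 at 17-18 h and 1.18 at 20-21 h.

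Embryos of a window that were high for one replication gene tended to be high for others, but hardly so at 11-12 h. There the quartiles of the correlation described next were -0.14 and 0.29. Over the 406 pairs of the 29 genes, the median Spearman correlation between embryos of a window was 0.45 at 2-3 h, 0.33 at 5-6 h, 0.33 at 8-9 h, 0.07 at 11-12 h, 0.25 at 14-15 h, 0.20 at 17-18 h, 0.41 at 20-21 h and 0.35 at 23-24 h. Over all pairs of the 9606 genes it was between -0.0026 and 0.013 in the 8 windows. In own-window embryos the values were 0.26, 0.14, 0.33, 0.07, 0.24, 0.20, 0.17 and 0.13 in the same order. These are descriptions without a test, since the genes of a pair share the embryo, its library and its depth.

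The genes resembled each other across windows as well. The Pearson correlation of a gene's 8 window means with the mean profile of the 29 was above 0.9 for 27 of the 29, for 38 of 50 other replication genes and for 13.9% of all genes; each of the 29 contributes to the profile it is compared with. Psf3 (0.73) and E2f1 (0.72) were the exceptions. Outside both lists, the 8 genes most like this profile were SmD2, HP4, RpS5b, TfIIA-S, Sumo, slp1, cmet and CG9839, with correlations over the 8 windows between 0.995 and 0.997. Of these, Sumo codes for the small ubiquitin-like modifier and had a mean log2 level of 9.32 at 17-18 h and 13.03 at 5-6 h, and HP4 had 5.58 at 17-18 h and 8.99 at 5-6 h. In own-window embryos cmet, a kinetochore motor, was again among the nearest 8, and the other 7 were CG5235, Ote, CG17129, Iswi, Sas-6, RpS9 and CG44477.

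The rest of the replication machinery, a list of 53 genes of which 50 were tested, was compared in the same steps. At 8-9 h against 5-6 h, 23 of the 50 were lower and 4 higher, and at 11-12 h against 8-9 h 18 were lower and 0 higher, with median log2 fold changes of -0.90 and -1.16. Of all genes, 24.0% were lower and 13.9% higher in the first of these steps and 8.52% and 15.9% in the other. The polymerase genes PolE3, PolE4 and Prim1 had medians of 24.6, 11.97 and 4.34 cpm at 17-18 h and of 208, 113 and 48.9 cpm at 5-6 h. The clamp loader genes RfC4 and RfC3 had 3.65 and 1.89 cpm at 17-18 h and 115 and 68.0 cpm at 5-6 h. CG10336 had 5.85 cpm at 17-18 h and 90.1 cpm at 5-6 h. Among the initiation and chromatin factors, asf1, a histone chaperone, and Caf1-55, the third subunit of the chromatin assembly factor, were both lower at 8-9 h than at 5-6 h, while chif, the activator of the Cdc7 kinase, had 39.3 cpm at 8-9 h and 37.3 cpm at 5-6 h and was not called in any step between neighbouring windows in all 153 embryos. In nucleotide metabolism, dnk, the deoxyribonucleoside kinase, and Ts, thymidylate synthase, were both lower at 8-9 h than at 5-6 h.

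Genes that control entry into and exit from the cell cycle did not all follow. Cdk1, the mitotic kinase, fell in 3 steps and had medians of 693 at 2-3 h, 632 at 5-6 h, 223 at 8-9 h, 62.6 at 11-12 h, 25.3 at 14-15 h, 31.2 at 17-18 h, 44.6 at 20-21 h and 46.2 at 23-24 h (cpm). Cdk2, its S phase relative, was lower at 8-9 h than at 5-6 h (log2 fold change -1.41, SE 0.44, adjusted p = 0.00757) and at 14-15 h than at 11-12 h (log2 fold change -1.50, SE 0.53, adjusted p = 0.0217). By contrast stg, the phosphatase that triggers mitosis, was higher at 8-9 h than at 5-6 h (log2 fold change 0.86, SE 0.32, adjusted p = 0.0238) before it fell at 11-12 h (log2 fold change -2.23, SE 0.40, adjusted p = 5.15e-06). Higher levels at 8-9 h were also called for dap, the inhibitor of cyclin E and Cdk2 (log2 fold change 1.04, SE 0.34, adjusted p = 0.00967), fzr, an activator of the anaphase-promoting complex (log2 fold change 1.21, SE 0.27, adjusted p = 1.11e-04), and, among the initiation and fork factors rather than the cell cycle genes, Top1 (log2 fold change 0.82, SE 0.30, adjusted p = 0.0228). These were the 4 of the 50 called higher in that step, in which 13.9% of all genes were higher; dap, fzr and Top1 are named here after their values were seen. The dap gene was already higher at 5-6 h than at 2-3 h (log2 fold change 1.48, SE 0.46, adjusted p = 0.0247), with medians of 13.1, 63.0 and 279.9 cpm at 2-3 h, 5-6 h and 8-9 h.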

How the data were processed

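Single embryos were sequenced by BRB-seq. The deposited values are raw counts per gene: the authors demultiplexed the reads with BRB-seqTools, aligned them with STAR to BDGP6 and counted them with HTSeq; strand setting and molecular identifiers are not given in the sources used here. Gene names and positions came from Ensembl release 115, which matched 17560 of 17698 identifiers. Embryos with at least 300000 protein-coding counts and 4500 detected genes were kept (250 of 288); 97 of them formed a separate cluster in multidimensional scaling and were left out. The study also set a cluster aside, as apparently unfertilized eggs; the sample counts given are those of the re-analysis and differ from the study's. Calls of cluster were the same for all 250 without the replication genes. Genes with a mean above 1 cpm were kept (9606). Counts were tested with edgeR (version 4.0.16) quasi-likelihood, TMM scaling and library as covariate, in R 4.3.3, with Benjamini-Hochberg adjustment. limma 3.58.1, DESeq2 1.42.0 and sva 3.50.0 (ComBat, for the adjusted SD) served the alternatives and spread. The edgeR test, the adjusted SD and the nearest window were checked on simulated data. The simulated counts had the same dispersion for all genes and no library effect. They held no embryos with the profile of another window, so the check does not cover such embryos. Embryos were grouped by age window from their development stage labels, and the 1 embryo whose age labels disagree by its title. The genes with full values were the 2 per role with the highest mean cpm and any called against most of its role, and outside the list the 8 nearest profiles and the 3 highest genes per role, of which 1 is not reported here. Members and lists were chosen with earlier results of these data known. No file columns were left out.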

Additional observations from a re-analysis of the deposited data

How the results depend on the processing

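The share of all genes called also moved between settings. It is given in brackets after each count, for the same step and direction. In limma, for example, 29.5% of all genes were lower at 14-15 h against 11-12 h, against 10.9% in edgeR. Counts of the 29 genes called in all 153 embryos moved by over 1.5 times in these settings. With limma on voom values with quantile normalization, 2 higher at 5-6 h against 2-3 h (4.60%), 19 lower at 14-15 h against 11-12 h (29.5%), 0 lower at 17-18 h against 14-15 h (5.00%), 5 higher at 20-21 h against 17-18 h (9.08%) and 0 lower at 23-24 h against 20-21 h (0.739%) were called. With the separate cluster of 97 samples included, 4 higher at 5-6 h against 2-3 h (9.68%), 8 lower at 8-9 h against 5-6 h (11.0%), 9 lower at 11-12 h against 8-9 h (3.48%), 4 lower at 14-15 h against 11-12 h (5.14%), 2 lower at 17-18 h against 14-15 h (9.83%), 13 higher at 20-21 h against 17-18 h (12.4%), 1 lower at 20-21 h against 17-18 h (5.09%), 5 higher at 23-24 h against 20-21 h (4.94%), 4 lower at 23-24 h against 20-21 h (15.0%), 5 higher at 23-24 h against 2-3 h (33.3%) and 16 lower at 23-24 h against 2-3 h (23.2%) were called. With own-window embryos only, 2 higher at 5-6 h against 2-3 h (6.89%), 16 lower at 14-15 h against 11-12 h (14.6%), 11 lower at 17-18 h against 14-15 h (15.9%) and 12 higher at 20-21 h against 17-18 h (14.8%) were called. With DESeq2 size factors in edgeR, 10 lower at 8-9 h against 5-6 h (15.5%), 6 lower at 14-15 h against 11-12 h (8.23%) and 0 lower at 17-18 h against 14-15 h (2.46%) were called. With DESeq2's Wald test, 11 lower at 8-9 h against 5-6 h (17.8%) and 5 lower at 23-24 h against 20-21 h (3.94%) were called. With no filter on low counts, 11 lower at 8-9 h against 5-6 h (18.6%), 0 lower at 17-18 h against 14-15 h (2.55%) and 2 lower at 23-24 h against 20-21 h (2.05%) were called. With library E2 alone, 0 lower at 8-9 h against 5-6 h (4.53%), 0 lower at 11-12 h against 8-9 h (0.239%), 1 lower at 14-15 h against 11-12 h (3.71%), 0 lower at 17-18 h against 14-15 h (0.323%), 12 higher at 20-21 h against 17-18 h (4.06%) and 0 lower at 20-21 h against 17-18 h (1.68%) were called. With library E3 alone, 0 lower at 8-9 h against 5-6 h (0.239%), 0 lower at 11-12 h against 8-9 h (0%), 0 lower at 14-15 h against 11-12 h (0.541%), 0 lower at 23-24 h against 20-21 h (0.0729%) and 5 lower at 23-24 h against 2-3 h (3.03%) were called. So few genes were called there that a count of 0 says little about the 29. For the steps of E3 into and out of 17-18 h, which rest on 1 embryo, only effect sizes are given. The median log2 fold change of the 29 was -2.85 at 17-18 h against 14-15 h and 4.48 at 20-21 h against 17-18 h. Over all genes it was -2.19 and 2.64. With the 6 late embryos nearest to 2-3 h left out, 17 lower at 14-15 h against 11-12 h (16.9%), 8 higher at 20-21 h against 17-18 h (8.91%), 1 lower at 20-21 h against 17-18 h (5.09%) and 0 lower at 23-24 h against 20-21 h (1.10%) were called. With no library term, 0 lower at 17-18 h against 14-15 h (2.82%) and 3 lower at 23-24 h against 20-21 h (2.46%) were called. With counts thinned to 300000 per embryo, 0 lower at 17-18 h against 14-15 h (2.85%), 1 lower at 20-21 h against 17-18 h (5.99%) and 0 lower at 23-24 h against 20-21 h (1.17%) were called. With the embryo with conflicting labels left out, 0 lower at 17-18 h against 14-15 h and 0 lower at 23-24 h against 20-21 h were called. Of own-window embryos with limma on voom values with quantile normalization, 6 higher at 5-6 h against 2-3 h (9.36%), 2 lower at 5-6 h against 2-3 h (10.3%), 5 lower at 17-18 h against 14-15 h (15.1%) and 4 higher at 20-21 h against 17-18 h (14.3%) were called. Of own-window embryos with library E2 alone, 4 higher at 5-6 h against 2-3 h (4.65%), 11 lower at 8-9 h against 5-6 h (6.61%), 15 lower at 11-12 h against 8-9 h (3.57%), 6 lower at 14-15 h against 11-12 h (8.59%), 3 lower at 17-18 h against 14-15 h (5.08%), 0 higher at 20-21 h against 17-18 h (1.83%), 0 lower at 20-21 h against 17-18 h (1.52%) and 0 lower at 23-24 h against 20-21 h (0.874%) were called. Of own-window embryos with counts thinned to 300000 per embryo, 4 lower at 17-18 h against 14-15 h (10.8%) and 0 lower at 23-24 h against 20-21 h (4.55%) were called. The log2 fold change turned its sign with the separate cluster of 97 samples included: at 11-12 h against 8-9 h Mcm6 0.30, Mcm7 0.45, dup 0.86, geminin 0.74 and PCNA 0.51 and at 23-24 h against 2-3 h Mcm6 1.53, Mcm7 1.16, dup 1.77, geminin 1.49, Mcm10 1.59, Caf1-180 0.74 and Top2 0.17. The log2 fold change turned its sign with library E3 alone: at 14-15 h against 11-12 h dpa 0.44 and at 20-21 h against 17-18 h Psf3 1.23. The log2 fold change turned its sign with counts thinned to 300000 per embryo: at 20-21 h against 17-18 h Mcm10 -0.0532. The log2 fold change turned its sign with library E2 alone of own-window embryos: at 14-15 h against 11-12 h Mcm6 0.12 and at 20-21 h against 17-18 h PCNA -0.0240 and RpA-70 -0.30. The causes were not tested, except that a single library holds fewer embryos and that 1 embryo of library E3 was of 17-18 h. DESeq2 size factors moved the all-gene median log2 fold change at 23-24 h against 2-3 h to 0.54, against -0.08 with TMM, and the 29 genes were then -1.60 in the median. Multidimensional scaling without the replication genes changed no count by over 1.5 times. The settings of own-window embryos other than their choice itself, and the one without the 6 late embryos, were chosen after seeing the data. Own-window embryos of library E3 could not be fitted, since a window was without embryos. No paired analysis was possible because each sample was a different single embryo. Depth limits the genes under 1 cpm, such as Mcm10, Orc2 and Orc4, of which single embryos had counts of 0.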
